A study of Homo sapiens with 52 samples.

Results

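The comparison set HepG2 cells given 5 µM iMDK against HepG2 cells given vehicle, and its members were the 3 libraries of each group, 6 of the 52 libraries in the series. HepG2 is an established human liver tumour line, which the series uses as a model of hepatoblastoma, the childhood liver cancer, and it carries an activated form of β-catenin. iMDK is a small molecule that the submitters used as an inhibitor of midkine, and the other libraries hold a Wnt inhibitor, a second hepatoblastoma line (Huh6) and THP-1 cells. Both groups grew in RPMI-1640 medium with serum, attached over 48 h and were then kept for 48 h in medium with iMDK or with vehicle only, whose solvent the labels do not name. Both groups are the same line with no genetic change between them, so only the iMDK dose differed. Nothing in the labels says whether the 3 libraries of a group came from separate cultures. The p-values measure the spread between libraries of a group, which may be technical. For the main comparison this spread, the scaling and the expression filter were taken from all 13 HepG2 libraries, including those given 10 µM iMDK or the Wnt inhibitor. The same line at 10 µM iMDK (3 libraries) and Huh6 at 5 µM and vehicle (3 libraries each) are also used below to place the 5 µM values.

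Midkine, encoded by MDK, is a secreted heparin-binding growth factor of fetal tissues and many tumours that binds LRP1, syndecans and nucleolin on the cell surface. Interferon-stimulated genes, which form the steepest response described here, are switched on when sensors of viral nucleic acid or interferon receptors activate a transcription factor complex that binds a short DNA motif, the interferon-stimulated response element. E2F proteins and the DREAM complex in turn switch the genes of DNA replication and mitosis on and off through the E2F site and the cell cycle homology region.

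The libraries held 18287245 to 20037148 counts each, and levels are given as CPM, counts scaled to library size and by the trimmed mean of M values (TMM). A count of 0 in 1 library allows up to 3 counts, or 0.150 to 0.164 CPM, for counting error only. Hepatocyte products marked both groups: ALB stood at 6605, 6036 and 6245 CPM in the vehicle libraries and 4599, 4328 and 4255 CPM at 5 µM, and the 13 listed liver and epithelial markers were all measured. Of the 14 macrophage markers only LYZ and CD74 were abundant, and both were at like counts in the groups (67697 and 69950 counts for LYZ, 13058 and 13441 for CD74). PTPRC had 0 and 1 counts, CD163 0 and 2, and the markers other than LYZ, CD74 and CD68 summed to 4.81 to 6.48 CPM in the vehicle libraries and 6.64 to 7.62 CPM at 5 µM; the part of these low counts in any result was not tested. Fibroblast and endothelial markers summed to 35.2 to 37.5 CPM in vehicle and 40.0 to 42.7 CPM at 5 µM, led by PECAM1 (921 and 1370 counts) and PDGFRB (894 and 875), with ACTA2, KDR, PDGFRA and THY1 at 0; their part was not tested either. Mitochondrially encoded genes took 5.55 to 7.45% of the counts in the vehicle libraries and 6.85 to 7.76% at 5 µM, and 12939 to 13161 genes had 10 counts or more in a vehicle library against 13541 to 13615 at 5 µM. Of the 996 genes on the lists used here that have a row in the table, 93 had 0 counts in all 31 libraries of the tumour lines, among them genes that nearly every cell uses (the ribosomal protein genes RPL32 and RPS4X) and interferon-stimulated genes (IFIT1, IFIT2, IFIT3, OAS2, OAS3), so a listed 0 says nothing about whether such a gene was expressed.

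Differences, also those in brackets, are log2 fold changes, 5 µM minus vehicle, ± their standard error over 3 libraries a group. They were called at an adjusted p under 0.05 with edgeR's quasi-likelihood test over all genes. Of 15451 genes tested, 3588 rose (23.2%) and 3724 fell (24.1%), and the median over all genes was 0.02. Each list count below is to be read against these shares. At 2-fold or more, 832 rose (5.38%) and 404 fell (2.61%). Genes scarce in vehicle could enter the test through their level after treatment, and 26 genes called higher had no vehicle count. Of the genes tested, 11903 had 1 CPM or more in vehicle, and 3007 of those rose. The 2-fold counts were not taken over those genes alone, so the part of the filter in the excess of increases was not tested. MDK itself, at chr11:46380756-46383837 on the plus strand of GRCh38, was measured at 299, 281 and 301 CPM in the vehicle libraries and 252, 259.6 and 257 CPM at 5 µM. All 3 values at 5 µM lay below the 3 of the vehicle group, and MDK fell by 0.20 ± 0.03 on the log2 scale (adjusted p = 3.2e-06). Among genes with a mean log2 CPM of at least 1 and groups that did not overlap, the 15 steepest increases began at 3.62 on the log2 scale, and 9 of them (RSAD2, DDX60, OASL, IFI27, HERC5, IFI6, ISG15, CMPK2 and MX1) are on the list of interferon-stimulated genes. Under the same limits, which leave out IFI44 and steeper changes of scarcer genes, the 15 steepest decreases ran from -1.96 to -1.59, and among them TOP2A, UHRF1, CDC45, HELLS, CLSPN, TICRR, SPC25, RAD54L and E2F2 serve DNA replication, mitosis or repair or their control.

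**Figure D1:**
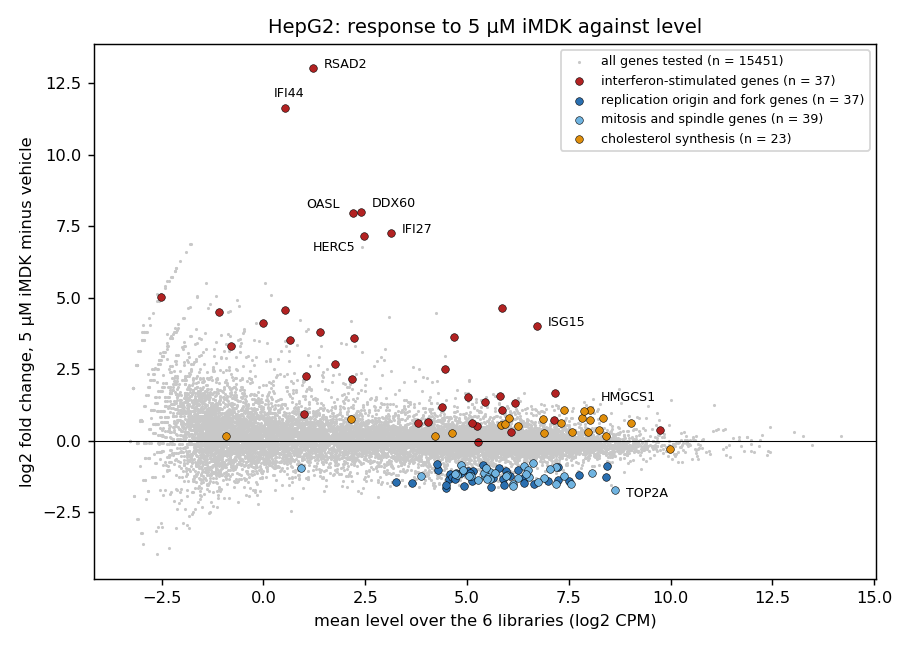
Log2 fold change (5 µM iMDK minus vehicle) of the 15451 genes tested against their mean log2 CPM over the 6 libraries, with 4 gene lists in colour. Interferon-stimulated genes lie at the top and the 37 replication and 39 mitosis genes all lie below 0; the fitted values of RSAD2 and IFI44, which had no vehicle count, depend on the prior count and are not bounds.

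Interferon-stimulated genes rose across nearly the whole list. Of 44 listed, 7 had 0 counts in all 31 tumour line libraries and 37 were tested: 36 rose, none fell, and only SAMHD1, a nucleotide triphosphohydrolase, did not pass (log2 fold change -0.04 ± 0.06, adjusted p = 0.59). The median was 2.51, or 2.26 with the 3 genes that had no vehicle count set at their lower bound, against 0.02 for all genes tested. Where no member of this list, or of the replication, mitosis, recombination, Wnt target, checkpoint ligand, guanylate-binding or immediate early lists, was called in a direction by edgeR, 0 had an unadjusted p under 0.05 in that direction and DESeq2 called 0. Because several of these genes entered the test only through their level after treatment, the count was also taken over the 23 members at 1 CPM or more in vehicle, of which 22 rose. Among the steepest were RSAD2 (viperin, a radical-SAM enzyme that makes a chain-terminating nucleotide), IFI44, DDX60 (a helicase linked to viral RNA sensing), OASL (an oligoadenylate synthetase-like protein) and IFI27 (a mitochondrial membrane protein).

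RSAD2, at chr2:6865806-6898239 on the plus strand, had 0 counts in the 3 vehicle libraries and 50.9, 54.4 and 53.6 CPM at 5 µM; against the 3 counts that zeros allow over the vehicle group (0.0540 CPM) it was at least 982-fold higher. IFI44 likewise went from 0 counts to 19.5, 20.2 and 21 CPM, at least 375-fold higher. Each was absent from the vehicle counts and near one level in the 3 treated libraries. DDX60 stood at 0.371, 0.314 and 0.171 CPM in the vehicle libraries and 72.1, 75.7 and 75 CPM at 5 µM (7.98 ± 0.13, adjusted p = 3.5e-35). OASL stood at 0.371, 0.262 and 0.114 CPM in the vehicle libraries and 62.3, 63.3 and 66.7 CPM at 5 µM (7.96 ± 0.16, adjusted p = 6.5e-33). IFI27 stood at 1.06, 0.314 and 0.682 CPM in the vehicle libraries and 107, 106 and 101 CPM at 5 µM (7.24 ± 0.13, adjusted p = 1.3e-34). In these 3 genes the groups lay far apart, with vehicle values near the limit of a few counts. HERC5, the ligase that attaches ISG15 to proteins, rose from 0.412 to 59.5 CPM (7.14 ± 0.12).

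Members with a clear vehicle level rose as well. ISG15, the ubiquitin-like modifier, was measured at 26.5, 25.7 and 26.3 CPM in the vehicle libraries and 399.8, 419.8 and 431 CPM at 5 µM (3.99 ± 0.05, adjusted p = 3.7e-40). IFI6, a mitochondrial antiviral protein, was measured at 12.2, 9.94 and 12.9 CPM in the vehicle libraries and 283, 289 and 292 CPM at 5 µM (4.63 ± 0.07, adjusted p = 4.9e-37). MX1, a dynamin-like GTPase that blocks viral ribonucleoproteins, was measured at 8.48, 6.59 and 6.77 CPM in the vehicle libraries and 82.1, 95.2 and 91.3 CPM at 5 µM (3.62 ± 0.08, adjusted p = 4.6e-31). No vehicle library reached a treated one in any of the 3, and the treated libraries differed among themselves by far less than they did from vehicle. HELZ2 rose from 81.5 to 257 CPM (1.66 ± 0.05). PARP14 rose from 45.6 to 114 CPM (1.32 ± 0.05). Some named members rose by less: BST2 (tetherin) rose from 109.7 to 180.0 CPM (0.71 ± 0.04). USP18, which removes ISG15 from proteins, rose from 13.2 to 20.5 CPM (0.64 ± 0.09). LGALS3BP rose from 744 to 974 CPM (0.39 ± 0.03). IFITM3, which was scarce in vehicle, rose from 1.41 to 2.66 CPM (0.92 ± 0.26). Without 5 µM library 3, which held the highest value, its adjusted p was 0.066.

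**Figure D2:**
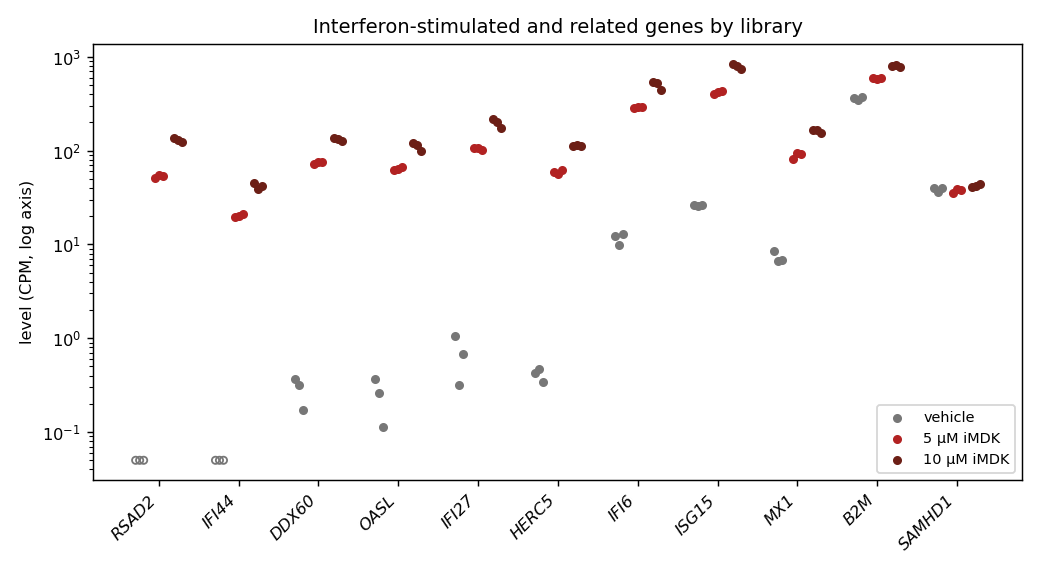
Level (CPM, log axis) of 11 interferon-stimulated and related genes in each of the 3 libraries given vehicle, 5 µM iMDK or 10 µM iMDK; open circles at the lower edge are counts of 0. In the first 10 genes the vehicle and 5 µM libraries do not overlap, and in SAMHD1 they do.

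Promoters of 6 of the genes that rose are shown, chosen because letters matching the interferon-stimulated response element lie in them; those of OASL and IFI44 are not shown. The windows are the 250 bases before a RefSeq transcription start (GRCh38.p14), written 5′ to 3′ along the gene, with matches on either strand to that element (GAAA, any 2 bases, GAAA) in capitals. Of several windows, 1 with the most matches is printed; for RSAD2 it precedes the more downstream start, and the 250 bases before the other start held 0 matches. They lie at chr2:6877527-6877776 (plus strand) for RSAD2, chr14:94110486-94110735 (plus strand) for IFI27, chr1:1013247-1013496 (plus strand) for ISG15, chr1:27672193-27672442 (minus strand) for IFI6, chr4:168318753-168319002 (minus strand) for DDX60 and chr4:88456869-88457118 (plus strand) for HERC5.
RSAD2: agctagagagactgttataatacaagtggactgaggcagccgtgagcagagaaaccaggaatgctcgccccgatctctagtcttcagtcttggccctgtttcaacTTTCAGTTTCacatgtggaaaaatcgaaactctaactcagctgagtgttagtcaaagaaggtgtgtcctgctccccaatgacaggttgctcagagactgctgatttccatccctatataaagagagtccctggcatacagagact
IFI27: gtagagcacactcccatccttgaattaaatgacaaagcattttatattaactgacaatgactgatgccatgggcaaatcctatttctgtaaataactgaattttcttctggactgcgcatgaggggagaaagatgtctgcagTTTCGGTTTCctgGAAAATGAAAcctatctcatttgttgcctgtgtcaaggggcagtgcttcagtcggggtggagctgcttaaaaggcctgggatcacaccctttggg
ISG15: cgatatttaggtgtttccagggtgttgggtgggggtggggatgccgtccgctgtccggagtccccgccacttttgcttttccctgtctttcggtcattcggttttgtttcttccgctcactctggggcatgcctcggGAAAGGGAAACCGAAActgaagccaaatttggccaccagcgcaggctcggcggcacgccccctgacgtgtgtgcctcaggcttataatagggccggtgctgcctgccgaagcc
IFI6: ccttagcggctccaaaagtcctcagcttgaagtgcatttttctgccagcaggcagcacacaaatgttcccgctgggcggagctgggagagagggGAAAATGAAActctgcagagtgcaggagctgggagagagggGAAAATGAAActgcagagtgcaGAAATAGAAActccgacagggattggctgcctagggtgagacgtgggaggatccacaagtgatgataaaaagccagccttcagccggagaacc
DDX60: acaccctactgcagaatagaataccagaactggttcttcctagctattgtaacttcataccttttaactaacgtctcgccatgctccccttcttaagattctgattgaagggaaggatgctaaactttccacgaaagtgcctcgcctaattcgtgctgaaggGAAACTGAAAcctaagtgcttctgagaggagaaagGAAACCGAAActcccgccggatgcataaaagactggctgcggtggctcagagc
HERC5: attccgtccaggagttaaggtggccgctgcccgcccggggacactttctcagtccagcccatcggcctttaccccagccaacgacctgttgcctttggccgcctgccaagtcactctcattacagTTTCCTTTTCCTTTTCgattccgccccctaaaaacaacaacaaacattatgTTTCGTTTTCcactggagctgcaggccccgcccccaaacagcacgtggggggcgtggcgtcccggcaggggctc

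RSAD2 had 1 match, IFI27, ISG15 and DDX60 had 2 each, and IFI6 and HERC5 had 3 each; matches that overlap in a run, as in ISG15 and HERC5, are counted separately. Over windows of 250 bases before to 50 bases after the start, 23 of the 32 tested members with a window (71.9%) held the motif in at least 1 window, against 3.79% of the 10854 tested genes with a window and 3.57% of all 35116 windows. A match is a description of the letters only. RSAD2 and CMPK2 overlap on opposite strands, and the strand setting of the counting is not given in the sources used here, so reads of the pair could be exchanged. The same holds for CA9, FANCI, MTTP, PSMB9, RAD54L, SP140, SQSTM1, TICRR and XRCC3, each of which overlaps a gene on the other strand that had the higher mean CPM in vehicle, at 5 µM or in both. CMPK2 rose from 0.647 to 9.04 CPM (3.79 ± 0.21).

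Genes that sense nucleic acid or carry the interferon signal rose by less. Of 23 tested, 14 rose and 3 fell, with a median of 0.32. IFIH1 (MDA5), a sensor of long double-stranded RNA, stood at 19, 17.9 and 19.6 CPM in the vehicle libraries and 51.8, 53.8 and 53.2 CPM at 5 µM (1.49 ± 0.06, adjusted p = 2.6e-22). DHX58 (LGP2), its regulator, rose from 6.38 to 27.1 CPM (2.09 ± 0.09). STAT2, a transcription factor of interferon signalling, rose less, from 60.2 to 75.8 CPM (0.33 ± 0.05). EIF2AK2, the double-stranded RNA-dependent kinase PKR, rose from 93.1 to 139.6 CPM (0.58 ± 0.04). STING1 rose from 4.59 to 7.07 CPM (0.63 ± 0.14). MAVS, the mitochondrial adaptor downstream of these sensors, fell from 352 to 311 CPM (-0.18 ± 0.03). IRF2, a repressor of interferon genes, fell from 39 to 31.3 CPM (-0.32 ± 0.06). IRF3 did not pass (log2 fold change 0.03 ± 0.05, adjusted p = 0.67). Interferon transcripts themselves were near the floor: IFNL1 had 0 counts in each vehicle library and 4, 11 and 3 counts at 5 µM, at least 5.56-fold higher, while IFNB1 had 1 count in 1 of the 3 treated libraries and none in vehicle.

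The antigen presentation genes that could be tested moved in part. Of 16 listed for MHC class I, 3 had 0 counts in all 31 tumour line libraries. TAP1 and TAP2 had such zeros, which do not show whether a gene was expressed. Of 13 MHC class I presentation genes tested, 6 rose and 1 fell; without vehicle library 2, 3 fell, and without vehicle library 3, 2 fell. Among all genes tested, 23.2% rose and 24.1% fell. B2M, the invariant light chain, stood at 359.7, 350.3 and 372 CPM in the vehicle libraries and 598, 587 and 601 CPM at 5 µM (0.72 ± 0.03, adjusted p = 2.5e-22), with no overlap between the groups. The heavy chain gene HLA-B rose from 110.4 to 168 CPM (0.60 ± 0.04). HLA-C rose from 253 to 344 CPM (0.44 ± 0.03). HLA-E rose from 154 to 194 CPM (0.34 ± 0.03); these genes are near-identical copies in part, so reads can be split between them. NLRC5, their transactivator, rose from 24.8 to 30.9 CPM (0.32 ± 0.07). CALR, the chaperone of the loading complex, fell from 1782 to 1409.6 CPM (-0.34 ± 0.03). The immunoproteasome subunits PSMB8 and PSMB9 did not pass (log2 fold changes -0.02 ± 0.07, adjusted p = 0.88, and -0.05 ± 0.15, adjusted p = 0.8), and among the 9 guanylate-binding protein and immunoproteasome genes tested 3 rose, UBE2L6 (the ISG15-conjugating enzyme, 0.83 ± 0.05), GBP2 (0.87 ± 0.12) and GBP3 (1.51 ± 0.31).

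Most of the chemokines and cytokines that could be tested rose. Of 29 listed, 14 were tested, and 11 of those rose and 1 fell. Of the 11 members at 1 CPM or more in vehicle, 9 rose. The untested members had too few counts to be tested, 5 of them with 0 counts in all 31 tumour line libraries. As stated above, such a 0 does not show whether a gene was expressed. CXCL8, the neutrophil chemokine, stood at 9.06, 8.22 and 8.47 CPM in the vehicle libraries and 34.4, 36.5 and 35.6 CPM at 5 µM (2.05 ± 0.07, adjusted p = 2.7e-24). LIF, an interleukin-6 family cytokine, rose from 22.3 to 61.6 CPM (1.47 ± 0.06). IL11 rose from 18 to 40.7 CPM (1.18 ± 0.06). GDF15, a stress-induced hormone, stood at 617, 664 and 624 CPM in the vehicle libraries and 1722, 1719.7 and 1639.7 CPM at 5 µM (1.42 ± 0.03, adjusted p = 6.4e-32) and was 1 of the 10 largest gains in CPM. No library of one group reached the other in any of these genes. CX3CL1, the membrane-bound chemokine, fell from 133 to 109 CPM (-0.29 ± 0.04). Of 10 checkpoint and costimulatory ligands tested, 5 rose and none fell, against 23.2% and 24.1% of all genes tested. Among those that rose were TNFSF9, the 4-1BB ligand, from 4.02 to 10.7 CPM (1.41 ± 0.12) and, at low levels, ULBP1, a ligand of the NKG2D receptor, from 0.235 to 1.1 CPM (2.21 ± 0.43).

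Genes of DNA replication and mitosis fell together. All 37 replication origin and fork genes tested fell, between -1.65 and -0.82 (median -1.27), and all 39 mitosis and spindle genes fell, between -1.71 and -0.79 (median -1.21). Of 22 homologous recombination and Fanconi genes, 21 fell (median -1.19), and only XRCC3, at 1 to 2 CPM, did not pass (-0.24 ± 0.29, adjusted p = 0.53). In bulk RNA, fewer cycling cells and less of these RNAs in each cell cannot be told apart. TOP2A, the topoisomerase that untangles chromosomes, stood at 737, 695 and 726 CPM in the vehicle libraries and 212, 223 and 225 CPM at 5 µM (-1.71 ± 0.03, adjusted p = 9.2e-33). MCM2, a subunit of the replicative helicase, stood at 166, 167 and 171 CPM in the vehicle libraries and 58.6, 59.2 and 58.7 CPM at 5 µM (-1.51 ± 0.04, adjusted p = 9.3e-29). CDK1, the mitotic kinase, stood at 122, 121 and 121 CPM in the vehicle libraries and 40.3, 40.9 and 41.1 CPM at 5 µM (-1.57 ± 0.05, adjusted p = 8.4e-27). In each of the 3 genes all treated libraries lay well below all vehicle libraries, and the 3 treated values were close together. PCNA, the sliding clamp, fell less, from 474 to 256 CPM (-0.89 ± 0.03). CCNB1, the mitotic cyclin, fell from 185 to 93.3 CPM (-0.99 ± 0.04). MKI67, the proliferation marker, fell from 246 to 86 CPM (-1.51 ± 0.05).

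The fall took in maintenance of DNA methylation and repair. UHRF1, which recruits the maintenance methyltransferase to new DNA, fell from 84.2 to 27.1 CPM (-1.64 ± 0.05). DNMT1, that methyltransferase, fell from 208 to 110.3 CPM (-0.92 ± 0.04). The remodeller HELLS fell from 32.5 to 10.2 CPM (-1.67 ± 0.08). Repair genes fell too: RAD54L from 19.3 to 6.36 CPM (-1.60 ± 0.10). FANCI fell from 58.7 to 21.1 CPM (-1.48 ± 0.06). BRCA1 fell from 70.5 to 30.2 CPM (-1.22 ± 0.06). Of 18 G1 cyclins, kinases and inhibitors tested, 12 fell and 3 rose. CDKN1A, the p21 inhibitor of cyclin-dependent kinases, stood at 181, 182 and 187 CPM in the vehicle libraries and 392, 406 and 399.8 CPM at 5 µM (1.12 ± 0.03, adjusted p = 7.3e-28). The transcription factor gene E2F1 fell from 121 to 50.4 CPM (-1.26 ± 0.05). E2F2 fell from 31.8 to 10.6 CPM (-1.59 ± 0.08). CDK6 fell from 329 to 238 CPM (-0.47 ± 0.03), and CCND1, the cyclin D1 gene, did not pass (0.01 ± 0.03, adjusted p = 0.77).

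Promoters of 3 of these genes, which hold matches and are examples only, are shown in 250 bases before a RefSeq start of GRCh38.p14. Matches to the motifs of their class on either strand are in capitals: TTTNNCGC (E2F site) for MCM6, a helicase subunit gene, and TTTGAA (cell cycle homology region) for TOP2A and CDK1. CDK1 has 2 windows, of which the one with more matches is printed, and the 250 bases before the other start held 1 match. MCM6 lies at chr2:135876444-135876693 (minus strand), TOP2A at chr17:40417897-40418146 (minus strand) and CDK1 at chr10:60778228-60778477 (plus strand).
MCM6: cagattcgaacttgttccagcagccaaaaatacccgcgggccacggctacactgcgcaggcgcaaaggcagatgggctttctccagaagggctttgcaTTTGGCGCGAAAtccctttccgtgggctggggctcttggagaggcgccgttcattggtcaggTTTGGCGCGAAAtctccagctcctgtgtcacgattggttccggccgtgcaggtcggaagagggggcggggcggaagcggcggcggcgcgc
TOP2A: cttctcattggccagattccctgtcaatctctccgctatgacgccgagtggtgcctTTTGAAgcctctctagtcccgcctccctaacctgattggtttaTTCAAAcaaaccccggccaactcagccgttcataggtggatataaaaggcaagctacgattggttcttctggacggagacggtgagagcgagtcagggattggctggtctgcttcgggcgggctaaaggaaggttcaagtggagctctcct
CDK1: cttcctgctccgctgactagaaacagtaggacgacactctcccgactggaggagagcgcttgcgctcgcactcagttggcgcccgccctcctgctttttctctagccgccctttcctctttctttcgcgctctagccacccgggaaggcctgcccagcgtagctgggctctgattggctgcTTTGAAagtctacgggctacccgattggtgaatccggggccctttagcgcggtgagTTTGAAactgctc

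MCM6 had 4 matches, in 2 places where matches on both strands overlap, and fell from 74.5 to 30.9 CPM (-1.27 ± 0.05). TOP2A and CDK1 had 2 matches each. Over the windows from 250 bases before to 50 after a start, the E2F site was in 21 of 33 replication genes with a window (63.6%), against 12.4% of the tested genes, and TTTGAA was in 23 of 33 mitosis genes (69.7%), against 14.1%.

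Transcripts of Wnt feedback and of midkine's receptors moved by less. Of 15 Wnt/β-catenin targets tested, 10 fell and none rose (median -0.41). DKK1, a secreted Wnt antagonist, stood at 634, 625 and 647 CPM in the vehicle libraries and 217, 221 and 218 CPM at 5 µM (-1.54 ± 0.03, adjusted p = 3.4e-32), the largest fall of the list. NOTUM, the Wnt deacylase, fell from 302 to 211 CPM (-0.52 ± 0.04). LGR5, the R-spondin receptor, fell from 174 to 125 CPM (-0.48 ± 0.04). NKD1 fell from 711 to 537 CPM (-0.41 ± 0.03). AXIN2, the standard readout of β-catenin activity, stood at 146, 156 and 153 CPM in the vehicle libraries and 129.6, 124 and 117 CPM at 5 µM (-0.29 ± 0.04, adjusted p = 5.2e-08), and its groups did not overlap. MYC, LEF1 and CCND1 did not pass (log2 fold changes -0.01 ± 0.03, 0.52 ± 0.83 and 0.01 ± 0.03). Of 25 tested genes of Wnt ligands, receptors and the β-catenin machinery, 6 fell, 4 rose and 15 did not pass (median -0.10). Over all genes tested, 24.1% fell and 23.2% rose. CTNNB1, which encodes β-catenin, fell from 753 to 625 CPM (-0.27 ± 0.03). TCF7L2, its DNA-binding partner, fell from 53.2 to 36.3 CPM (-0.55 ± 0.06). WNT7B, a Wnt ligand, rose from a low level, 0.83 ± 0.0695 to 2.84 ± 0.323 CPM (1.77 ± 0.20).

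Of 14 tested genes of midkine, pleiotrophin and their reported receptors, 5 rose and 5 fell; without 5 µM library 1, 3 rose. Among all genes tested, 23.2% rose and 24.1% fell. LRP1 stood at 558, 403 and 447 CPM in the vehicle libraries and 289, 297 and 386 CPM at 5 µM (-0.54 ± 0.07, adjusted p = 5.9e-08). Vehicle library 1 and 5 µM library 3 were the highest of their groups, and the groups did not overlap. Those libraries also had the highest levels of genes with long transcripts relative to short ones (log2 0.0608 and 0.0499). The other compared libraries lay between -0.0568 and -0.00998. The part of this in the values of LRP1, a gene with a long transcript, was not tested. The syndecans split: SDC4 rose from 201 to 389 CPM (0.95 ± 0.03). SDC2 fell from 373 to 277 CPM (-0.43 ± 0.03). SDC1 fell from 379 to 306 CPM (-0.31 ± 0.03). NCL, nucleolin, fell from 1904 to 1593 CPM (-0.26 ± 0.03).

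Stress programmes rose in part, and several of the most abundant increases belonged to them. Of 26 NRF2 targets tested, 18 rose and 2 fell (median 0.35). TGACNNNGC, the antioxidant response element, was in 5 of the 19 members with a window (26.3%), little above the 19.7% of tested genes. TXNRD1, the thioredoxin reductase, stood at 473, 438 and 460.0 CPM in the vehicle libraries and 1069.9, 1065 and 1059.6 CPM at 5 µM (1.22 ± 0.03, adjusted p = 1.3e-29). SLC7A11, the cystine importer, rose from 10.9 to 34.8 CPM (1.67 ± 0.08). GCLM, the regulatory subunit of glutathione synthesis, rose from 66.3 to 142 CPM (1.10 ± 0.04). AKR1B10 rose from 102 to 223 CPM (1.13 ± 0.04). AKR1C1, which shares near-identical copies, rose from 583 to 1147 CPM (0.98 ± 0.03). HMOX1, heme oxygenase 1, fell from 91.7 to 79 CPM (-0.21 ± 0.05), so the list did not move as one. Of 23 lysosome and autophagy genes, 15 rose and 3 fell. SQSTM1, the autophagy receptor p62, stood at 233, 221 and 233 CPM in the vehicle libraries and 802, 814 and 782 CPM at 5 µM (1.80 ± 0.03, adjusted p = 4.5e-35). GABARAPL1 rose from 25.6 to 68.1 CPM (1.41 ± 0.05). MAP1LC3B rose from 80.2 to 164 CPM (1.03 ± 0.04). The protease gene CTSB rose from 831 to 1202 CPM (0.53 ± 0.03).

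Of 27 targets of ATF4 and the integrated stress response, 18 rose and 2 fell (median 0.44); without vehicle library 2, 4 fell. ATF3, a stress-induced repressor, stood at 16.1, 16.4 and 14.8 CPM in the vehicle libraries and 73, 66.7 and 67.9 CPM at 5 µM (2.13 ± 0.06, adjusted p = 2.0e-28). PPP1R15A (GADD34), the phosphatase subunit that ends the response, rose from 47.8 to 151 CPM (1.66 ± 0.04). The pseudokinase gene TRIB3 rose from 198 to 476 CPM (1.26 ± 0.03). ATF4 rose by little, from 369 to 437 CPM (0.24 ± 0.03). PHGDH, an ATF4 target in serine synthesis, fell from 161 to 103 CPM (-0.64 ± 0.04). Of 23 endoplasmic reticulum genes, 14 rose and 5 fell: DNAJB9, a target of the IRE1 branch, rose from 41 to 86.6 CPM (1.08 ± 0.05). HERPUD1 rose from 193 to 291 CPM (0.59 ± 0.04). The chaperone HSPA5 (BiP) rose from 1961 to 2535 CPM (0.37 ± 0.03). PDIA4 fell from 1102 to 873 CPM (-0.34 ± 0.03). Heat shock genes moved little, 6 rising and 3 falling of 17, against 23.2% and 24.1% of all genes tested. HSPA1A, a gene with a near-identical copy, rose from 60.2 to 77.8 CPM (0.37 ± 0.05). The mitochondrial chaperone HSPD1 fell from 2366 to 1714 CPM (-0.46 ± 0.03).

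Of 19 immediate early factors, 15 rose and none fell (median 0.95). KLF4 stood at 0.742, 1.36 and 0.91 CPM in the vehicle libraries and 19.1, 17.6 and 18.4 CPM at 5 µM (4.18 ± 0.14, adjusted p = 2.4e-25), and EGR1 at 17.5, 16 and 14.7 CPM in the vehicle libraries and 63.5, 71.3 and 72.1 CPM at 5 µM (2.10 ± 0.06, adjusted p = 6.2e-27). Both were higher in every treated library than in any vehicle library, and JUN rose from 83.3 to 168 CPM (1.01 ± 0.04). Of 24 p53 targets, 15 rose and 4 fell (median 0.38), or 2 without 5 µM library 2; MDM2, the p53 ligase, rose from 132 to 220.1 CPM (0.74 ± 0.04). SESN2 rose from 55.7 to 118 CPM (1.08 ± 0.04) and CDKN1A as above, while CCNG1 fell from 288 to 238 CPM (-0.27 ± 0.03). Among 15 BCL2 family genes, 6 rose and 2 fell (1 without vehicle library 3 or 5 µM library 3), and the increases held both killers and protectors: PMAIP1 (NOXA) stood at 5.72, 5.6 and 6.54 CPM in the vehicle libraries and 31.1, 34 and 35.4 CPM at 5 µM (2.49 ± 0.08, adjusted p = 6.8e-26). HRK rose from 0.284 to 3.12 CPM (3.41 ± 0.32). The protective MCL1 rose from 297 to 448 CPM (0.59 ± 0.03).

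**Figure D3:**
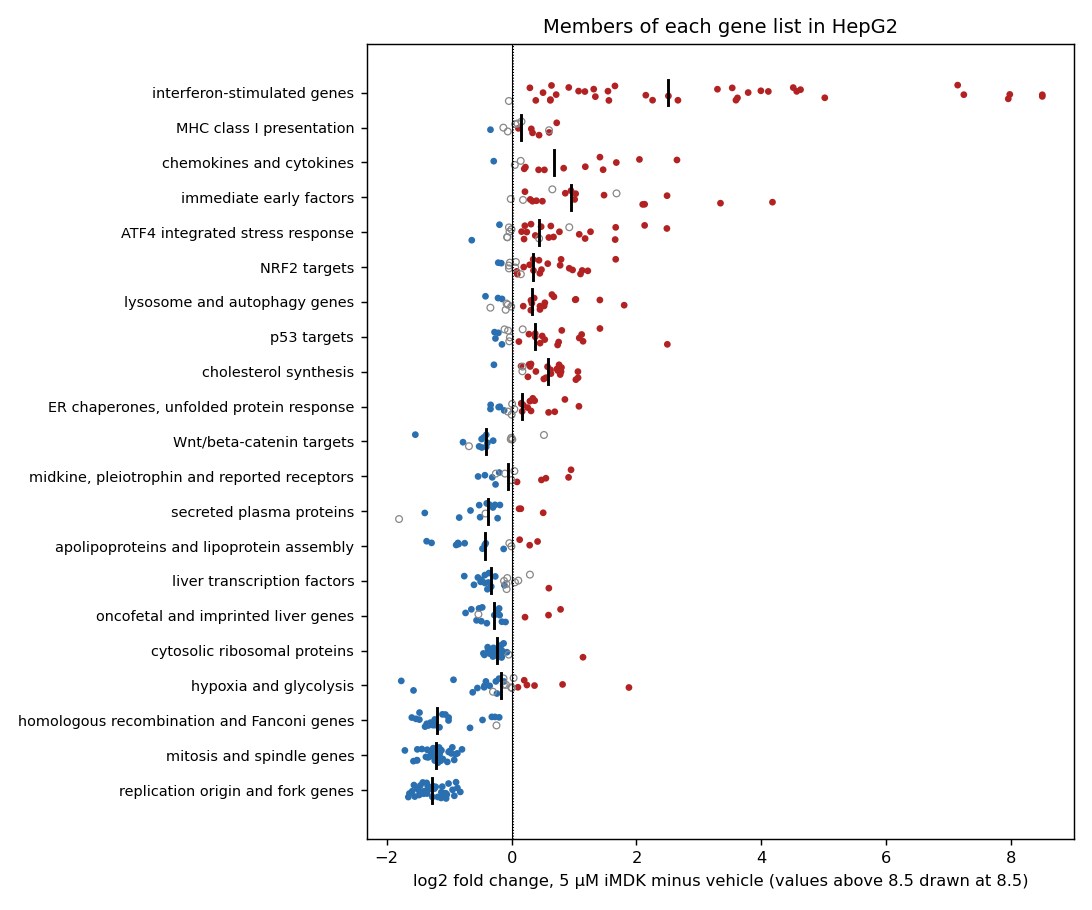
Log2 fold change (5 µM iMDK minus vehicle) of every tested member of each gene list; filled points passed the test (red above 0, blue below), open points did not, black bars are list medians, the dotted line is the median of all genes (0.02) and values above the axis limit are drawn at it. The replication and mitosis lists lie wholly below 0, and 36 of 37 interferon-stimulated genes passed the test above it.

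Cholesterol synthesis genes, the targets of the sterol-regulated factor SREBP2, rose together. Of 23 tested, 20 rose and 1 fell (median 0.58). HMGCS1, the synthase that starts the mevalonate pathway, stood at 178, 181 and 182 CPM in the vehicle libraries and 354, 394 and 381 CPM at 5 µM (1.06 ± 0.04, adjusted p = 6.3e-25). MVD rose from 116 to 242 CPM (1.06 ± 0.04). DHCR7 rose from 245 to 425 CPM (0.79 ± 0.03). FDPS rose from 91.1 to 152 CPM (0.74 ± 0.04). In each of these 4 genes every treated library exceeded every vehicle library. SREBF2, which encodes that factor, rose by less, from 325 to 361 CPM (0.15 ± 0.03). TCACNCCAC, the sterol regulatory element, was in 1 of the 16 members with a window (6.25%), against 1.36% of tested genes.

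Fatty acid synthesis was mixed, with 9 of 17 genes higher and 6 lower, against 23.2% and 24.1% of all genes tested. ACSS2, which makes acetyl-CoA from acetate, rose from 77.1 to 181 CPM (1.23 ± 0.04). SCD, the desaturase and 1 of the 10 largest gains in CPM, rose from 2188 to 2859.9 CPM (0.39 ± 0.03). GPAM, which starts glycerolipid assembly, fell from 289 to 183 CPM (-0.66 ± 0.03). Of 26 hypoxia and glycolysis genes, 13 fell and 6 rose (median -0.17). Log2 fold changes over the 26, called or not, ran from -1.77 to 1.88, and the members named here are all from those that fell. SLC2A3, the glucose transporter GLUT3, stood at 497, 493 and 499 CPM in the vehicle libraries and 273, 248 and 259 CPM at 5 µM (-0.93 ± 0.03, adjusted p = 5.0e-24). LDHA, lactate dehydrogenase, fell from 1335 to 914 CPM (-0.55 ± 0.03) and the HIF target CA9 fell from a low level, 5.01 ± 0.308 to 1.47 ± 0.497 CPM (-1.77 ± 0.23). CA9 overlaps ARHGEF39, which is on the other strand, was the more abundant and also fell (12.2 to 5.60 CPM, -1.13), so reads of the pair could be exchanged.

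Products of the hepatocyte and of fetal liver mostly fell. Of 16 secreted plasma protein genes tested, 11 fell and 3 rose (median -0.38). ALB, given above by library, had a log2 fold change of -0.52 ± 0.04, adjusted p = 1.2e-15. SERPINA1, the antitrypsin gene, fell from 4865 to 3693 CPM (-0.40 ± 0.03) and TF, transferrin, from 4043 to 3156 CPM (-0.36 ± 0.04); both are among the 10 largest losses in CPM. TTR, transthyretin, rose from 111 to 158 CPM (0.51 ± 0.05). Of 15 apolipoprotein and lipoprotein assembly genes, 10 fell and 3 rose: APOH fell from 1622 to 964 CPM (-0.75 ± 0.03). APOC3 fell from 69.2 to 38.2 CPM (-0.86 ± 0.07). MTTP, the triglyceride transfer protein, fell from 16.9 to 6.56 CPM (-1.36 ± 0.11). APOA2 rose from 1999 to 2668 CPM (0.42 ± 0.03). APOB stood at 7462, 5781 and 6263 CPM in the vehicle libraries and 4496, 4588 and 5559 CPM at 5 µM (-0.41 ± 0.06, adjusted p = 3.2e-07), again with vehicle library 1 and 5 µM library 3 highest. The higher level of long transcripts in those libraries is given with LRP1 above, and its part in APOB was not tested either. C3, the central complement component, fell from 4631 to 3575 CPM (-0.37 ± 0.04). C8B, of the membrane attack complex, fell from 8.98 to 2.64 CPM (-1.76 ± 0.17); of 17 complement genes 9 fell and 2 rose, or 1 with DESeq2, without vehicle library 1 or without 5 µM library 1.

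AFP, the fetal albumin and tumour marker, stood at 3548, 3388 and 3425 CPM in the vehicle libraries and 2414, 2312 and 2296 CPM at 5 µM (-0.56 ± 0.03, adjusted p = 6.1e-17), and GPC3, the fetal liver proteoglycan, at 1414, 1349 and 1387 CPM in the vehicle libraries and 1305, 1285 and 1292 CPM at 5 µM (-0.10 ± 0.03, adjusted p = 0.0054). The groups did not overlap for either gene, although the fall of GPC3 was small. Of 17 oncofetal and imprinted genes, 13 fell and 3 rose. IGF2 fell from 1858 to 1189 CPM (-0.64 ± 0.04). HMGA2 fell from 467 to 280.0 CPM (-0.74 ± 0.03). SALL4 fell from 5.86 to 4.08 CPM (-0.52 ± 0.15). PEG10 fell from 3113 to 2225 CPM (-0.48 ± 0.04). KRT19, a biliary and progenitor keratin, rose from 453 to 779.9 CPM (0.78 ± 0.03). Of 21 liver transcription factors, 13 fell and 1 rose (median -0.33): NR1H4, the bile acid receptor, fell from 43 to 25.5 CPM (-0.76 ± 0.07). FOXA1 fell from 149 to 111 CPM (-0.43 ± 0.04). HNF4A fell from 434 to 362 CPM (-0.26 ± 0.03). CEBPB, the acute-phase factor, rose from 107 to 161 CPM (0.60 ± 0.04). Of 15 iron handling genes tested, 8 fell and 4 rose (median -0.18), against 24.1% and 23.2% of all genes tested. HAMP, the hormone hepcidin, fell from 66.7 to 32.4 CPM (-1.04 ± 0.06). The iron exporter gene SLC40A1 rose from 73 to 177 CPM (1.28 ± 0.04). BMP6, an upstream ligand of HAMP, rose from 3.69 to 9.27 CPM (1.33 ± 0.13). IGFBP1, a liver secretory protein that binds insulin-like growth factors, stood at 1466, 1372 and 1336 CPM in the vehicle libraries and 3549.5, 3171 and 3279 CPM at 5 µM (1.26 ± 0.04, adjusted p = 6.0e-28), one of the 10 largest gains in CPM.

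Of 25 cytosolic ribosomal protein genes tested, 23 fell and 1 rose (median -0.23; none rose without vehicle library 1 or 5 µM library 2), with RPS2 at 1326, 1286 and 1348 CPM in the vehicle libraries and 983, 947 and 966 CPM at 5 µM (-0.45 ± 0.03, adjusted p = 2.6e-16). EEF1A1, the elongation factor, fell from 6091 to 4744 CPM (-0.36 ± 0.03). Scaling by relative log expression in place of TMM left the median of all genes at 0.02 and moved no list count by more than 1. Other steep changes lay outside the lists. KRT17, a stress keratin, stood at 0.371, 0.576 and 0.455 CPM in the vehicle libraries and 50.4, 51.1 and 52.1 CPM at 5 µM (6.75 ± 0.13, adjusted p = 1.2e-33). KLHDC7B rose from 4.01 to 87.6 CPM (4.45 ± 0.09). SP140, a chromatin reader of leukocytes that overlaps SP110 on the other strand, rose from 0.506 to 7.26 CPM (3.83 ± 0.23). SPTLC3, a serine palmitoyltransferase subunit, fell from 95.5 to 31.2 CPM (-1.61 ± 0.06). SMTNL2 fell from 13.8 to 3.54 CPM (-1.96 ± 0.14). The phospholipase gene PLA2G2A fell from 2041 to 1305 CPM (-0.64 ± 0.04), one of the 10 largest losses in CPM.

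**Figure D4:**
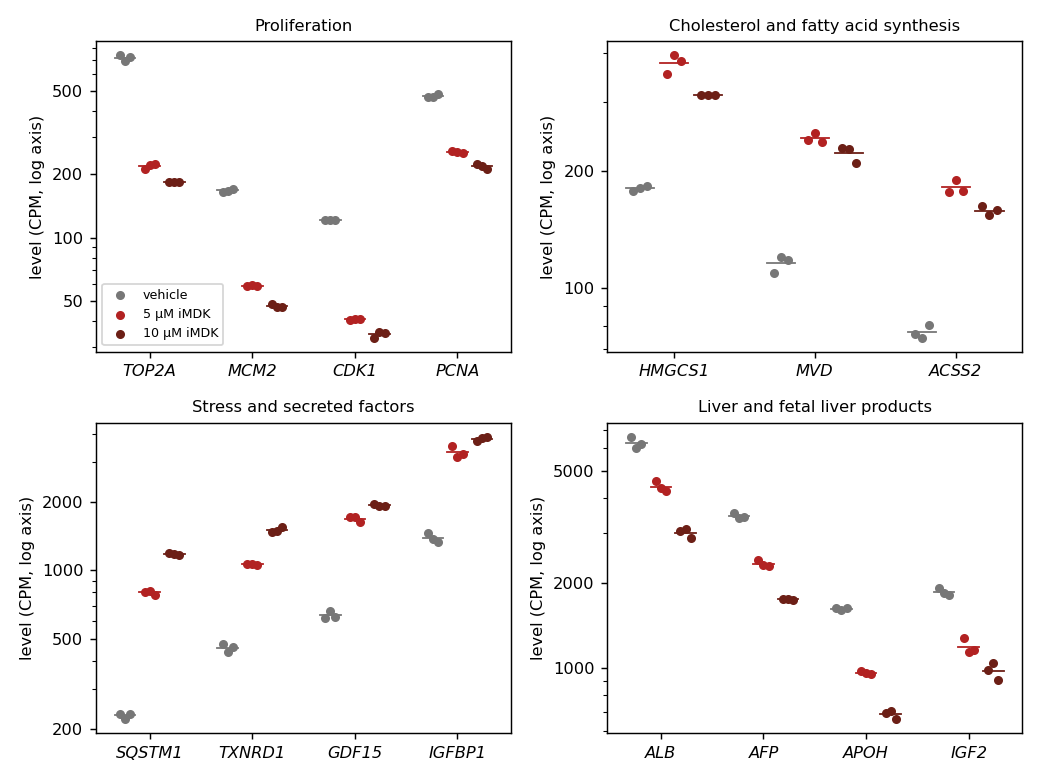
Level (CPM, log axes that do not start at 0) of 15 genes in each of the 3 libraries given vehicle, 5 µM iMDK or 10 µM iMDK; horizontal marks are group means. In all 15 genes the vehicle and 5 µM libraries do not overlap, and HMGCS1, MVD and ACSS2 are lower at 10 µM than at 5 µM.

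The higher dose shows how much of the response was already present at 5 µM. Between 10 and 5 µM, without the vehicle libraries, 1005 of 15451 genes were higher at 10 µM (6.5%) and 1072 lower (6.94%). Of the 37 interferon-stimulated genes, 34 were higher at 10 µM (median difference 0.74). RSAD2 stood at 136, 131 and 125 CPM at 10 µM, a log2 difference from 5 µM of 1.30 ± 0.06, and ISG15 at 842, 802 and 746 CPM (0.93 ± 0.04). The 8 genes with the largest increases between the doses (0.91 to 1.30) were RSAD2, SP140, CMPK2, SAMD9, ISG15, HERC5, IFI27 and KLF4, of which 6 are on that list. Replication and mitosis genes were also lower at 10 µM in 24 of 37 and 29 of 39 cases, but by less than the first step (median differences -0.25 and -0.24). Cholesterol synthesis went the other way, with 10 of 23 genes lower at 10 µM than at 5 µM and 1 higher. HMGCS1 stood at 312, 311 and 312 CPM at 10 µM, between vehicle and 5 µM. Of the plasma protein genes 11 of 16 were lower at 10 µM, ALB at 3059.6, 3107 and 2898 CPM, and of the NRF2 targets 19 of 26 were higher. The largest falls between the doses (-1.17 to -0.81) were in FRMPD2, PLA2G3, LNCAROD, RHEX, RENO1, ATP2B2, AGXT and FYB2; PLA2G3 rose from 1.27 to 5.35 CPM (2.08 ± 0.21) at 5 µM and stood at 2.63, 2.38 and 2.44 CPM at 10 µM.

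The same dose in Huh6, the other hepatoblastoma line, was compared with HepG2 by a test of the difference between the responses over 12 libraries. Of 15431 genes tested, 2403 responded more positively in HepG2 (15.6%) and 2621 more negatively (17%). In Huh6 alone, 17.3% of 15029 genes tested rose and 18.3% fell. Among the genes that differed, 297 rose in HepG2 and fell in Huh6, and 392 fell in HepG2 and rose in Huh6. Of 36 interferon-stimulated genes in this test, 30 responded more positively in HepG2. Only 26 members passed the expression filter in Huh6. Members too scarce there entered the test through their HepG2 level, so their direction was in part fixed beforehand. A count limited to members measured in both lines was not taken. In Huh6, 9 of the 26 rose and 4 fell, with a median of 0.11. ISG15 stood at 12.3 ± 0.255 and 22.1 ± 2.16 CPM in vehicle and treated Huh6 (0.85 ± 0.08), and IFI6 at 1.51 ± 0.0913 and 1.27 ± 0.0986 CPM (-0.25 ± 0.27). RSAD2 had 0 and 5 counts in the vehicle and treated Huh6 libraries together, IFI44 0 and 23, OASL 3 and 28 and HERC5 6 and 12, too few for a fold to be given for Huh6 at this depth. All 37 replication and all 39 mitosis genes fell further in HepG2 than in Huh6, where 28 and 35 of them fell, with medians of -0.15 and -0.20. Of 23 cholesterol synthesis genes, 20 responded more positively in HepG2, and in Huh6 15 fell and 1 rose (median -0.27). NRF2 targets had the reverse order: 25 of 26 rose in Huh6 (median 0.63), and 19 responded less positively in HepG2. AKR1B10 stood at 0.539 ± 0.0638 and 25.6 ± 1.41 CPM in Huh6 (5.55 ± 0.16). Endoplasmic reticulum genes responded more positively in HepG2 in 18 of 23 cases, as 14 fell in Huh6 and 1 rose. Wnt targets fell in both lines, 10 of 15 in HepG2 and 13 of 15 in Huh6, and 7 responded more negatively in HepG2 and 3 more positively.

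**Figure D5:**
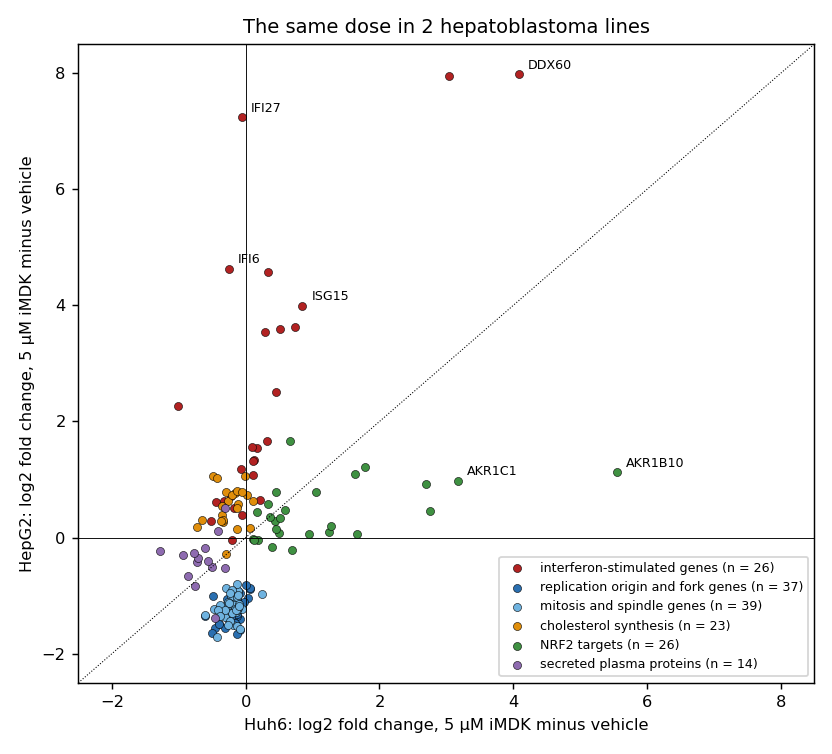
Log2 fold change at 5 µM iMDK minus vehicle in HepG2 (vertical) against that in Huh6 (horizontal) for the members of 6 gene lists tested in both lines; the dotted line marks equal responses. Nearly all interferon-stimulated and cholesterol synthesis genes lie above the line, replication and mitosis genes below it, and AKR1B10 and AKR1C1 far to its right.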

How the data were processed

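Poly(A)-enriched, directional RNA libraries of HepG2 cells were made after 48 h of treatment, per the labels' protocols. The authors deposited whole-number counts per gene; STAR 2.7.3a, SAMtools 1.16.1, featureCounts, edgeR 3.36 and GRCh38 are named in the submitters' processing notes, while an annotation release and a strand setting for counting are not named there (not given in the sources used here). Libraries were grouped by their labels.

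From the deposited counts, edgeR 4.0.16 (R 4.3.3) fitted its quasi-likelihood model to all 13 HepG2 libraries, which share 1 estimate of spread, after its expression filter by group and TMM scaling. The contrasts were 5 µM against vehicle and 10 against 5 µM; the difference of the HepG2 and Huh6 responses was fitted over 12 libraries. P-values were adjusted by Benjamini-Hochberg over all genes tested, at a threshold of 0.05. Standard errors were derived from the F statistic, n was 3 libraries a group, and ± after a CPM level is the SD. The code was tested on simulated data. Counting intervals and floors cover counting error only.

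The compared libraries and the 47 gene lists were chosen with earlier results of these data known; 2 histone lists were added after their values were seen. Genes were named as list members, as the 15 highest and 15 lowest log2 fold changes at a mean log2 CPM of at least 1 with non-overlapping groups, as the 10 largest CPM gains and losses, and as the 8 most extreme genes of the other tests. Replicate pairs of a group differed by more than sampling noise (chi-square per degree of freedom 1.89 to 8.69), so none was merged. Alternatives were relative log expression scaling, no filter or a filter of 1 CPM in 3 libraries, only the compared groups, a replicate block, DESeq2 1.42.0 and leaving out each library. Sequences and coordinates are RefSeq and annotation entries of GRCh38; windows were scanned for each motif on both strands. Some genes are not reported here.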

Additional observations from a re-analysis of the deposited data

Results flagged for a closer look

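The response to 5 µM iMDK in HepG2 differed from that in Huh6 in 2403 genes that responded more positively and 2621 that responded more negatively, by edgeR's test of the difference over 12 libraries, and the named genes that differed are given here as log2 differences, HepG2 minus Huh6, with standard errors. Interferon-related genes and KLF4 were higher: IFI27 (7.33 ± 0.50), IFI6 (4.90 ± 0.25), ISG15 (3.17 ± 0.09), KLHDC7B (4.37 ± 0.22) and KLF4 (3.93 ± 0.22). Replication and mitosis genes were lower: TOP2A (-1.26 ± 0.04), MCM2 (-1.35 ± 0.05), CDK1 (-1.46 ± 0.05) and PCNA (-0.93 ± 0.04). A cholesterol synthesis gene and a chaperone gene were higher: HMGCS1 (1.57 ± 0.05) and HSPA5 (0.50 ± 0.03). Redox genes were lower: AKR1B10 (-4.40 ± 0.16), AKR1C1 (-2.17 ± 0.11), NQO1 (-1.05 ± 0.07), HMOX1 (-0.87 ± 0.05) and TXNRD1 (-0.54 ± 0.04). CPLX2, which did not pass in HepG2 (0.03 ± 0.03, adjusted p = 0.38), rose in Huh6 from 15.1 ± 1.21 to 86.9 ± 3.76 CPM, a difference of -2.47 ± 0.06. Wnt and growth genes split, with LGR5 (-0.59 ± 0.07), DKK1 (-1.18 ± 0.04) and MYC (-0.35 ± 0.06) lower and NOTUM (0.42 ± 0.08) higher. Liver genes split as well: C3 (0.97 ± 0.06), IGF2 (0.57 ± 0.05), AFP (0.40 ± 0.05), APOA2 (0.93 ± 0.03) and IGFBP1 (1.78 ± 0.14) were higher and APOH (-0.74 ± 0.10) lower, and the metallothionein gene MT2A was higher (1.91 ± 0.08). The difference for MDK, 0.12 ± 0.04 (adjusted p = 0.033), was small and missed the threshold in 11 of 17 alternatives, with adjusted p between 0.056 and 0.24 in those.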

How the results depend on the processing

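The counts of genes higher and lower at 5 µM than in vehicle stayed within 1.5 times of 3588 and 3724 in every alternative run. They were 3032 and 3265 with DESeq2, and 3442 and 3616 with only the 2 compared groups fitted. When 1 library was left out they were 3240 to 3363 and 3423 to 3614. Between 10 and 5 µM DESeq2 called 789 higher and 834 lower, and for the difference from Huh6 1948 and 2423. Replicate numbers are shared between groups, but same-numbered vehicle and 5 µM libraries did not deviate together (correlations -0.0624, 0.0793 and 0.0422), and not every library correlated best with its own number; with the number as a replicate block 3575 genes were higher and 3728 lower, 1002 and 1063 between the doses, and 2319 and 2560 for the difference from Huh6. Genes that missed the test changed sign: leaving out 1 library at a time gave -0.0985 to 0.0812 for PSMB8, -0.188 to 0.0223 for PSMB9, -0.00422 to 0.0282 for CCND1 and -0.0224 to 0.00984 for MYC. Of the 13 mitochondrially encoded genes 3 rose, but 12 without vehicle library 2, 8 without 5 µM library 3 or with no filter, 6 with the block and 1 with DESeq2 or without vehicle library 1. The cause of these shifts was not tested. At this depth, genes under about 3 counts (0.150 to 0.164 CPM) cannot be measured, and 93 list members had no counts in any tumour line library.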

Other observations

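Replication-dependent cluster histones moved opposite to the replication genes: of 58 listed, 25 were tested, of which 16 rose and 0 fell (median 1.38). Only 9 of the 25 had 1 CPM or more in vehicle, and all 9 rose. The scarcer members could enter the test through their level after treatment. At an unadjusted p under 0.05 1 member fell, and with DESeq2 0. These RNAs normally lack a poly(A) tail and the libraries were poly(A)-enriched; many members are near-identical copies, so counts of single genes are uncertain, and the list was chosen after values were seen. H1-2 rose from 7.04 to 32.7 CPM (2.21 ± 0.08). H2AC6 rose from 9.3 to 39.4 CPM (2.08 ± 0.07). Outside the clusters, of 11 tested, 3 rose and 7 fell: H2AX, the damage-marking variant, fell from 176 to 83.5 CPM (-1.08 ± 0.04). H2AZ1 fell from 233 to 127 CPM (-0.87 ± 0.03).

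Other lists gave mixed counts, to be set beside the 23.2% of all genes tested that rose and the 24.1% that fell. For annexins and S100 genes, of 15 tested, 10 rose and 3 fell, with S100P, a calcium-binding protein, rising from 133 to 272 CPM (1.03 ± 0.03) and ANXA4 falling from 390.4 to 299 CPM (-0.38 ± 0.03). For feedback genes of the MAPK pathway, of 15 tested, 8 rose and 3 fell; the phosphatase gene DUSP5 rose from 17.1 to 54.9 CPM (1.68 ± 0.05). DUSP6 fell from 138 to 123 CPM (-0.17 ± 0.04). For fatty acid oxidation and PPARA targets, of 18 tested, 6 rose and 10 fell: CPT1A, the carnitine transferase, rose from 125 to 172 CPM (0.46 ± 0.04). The thiolase gene ACAA2 fell from 88.3 to 58.2 CPM (-0.60 ± 0.05). For coagulation factors, of 15 tested, 1 rose and 7 fell. In metal and nitrogen handling, MT2A rose from 98.1 to 229 CPM (1.23 ± 0.04). MT1G fell from 8.19 to 3.89 CPM (-1.07 ± 0.14); both are metallothioneins, whose copies are near-identical. CPS1, the first enzyme of the urea cycle, fell from 82 to 49.7 CPM (-0.72 ± 0.05). NAGS, which makes its activator, rose from 6.25 to 14.5 CPM (1.21 ± 0.09).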
